A study of Mus musculus with 5 samples.

Results

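The solute carriers (Slc genes) described here are the membrane transporters for sugars, nucleotide sugars, nucleosides, zinc, copper, iron, heme, protons and other ions, monocarboxylates, choline and vitamins, as transcribed in mouse macrophages exposed to lipopolysaccharide (LPS). They are the genes whose symbol begins with Slc and a digit, that averaged 1 FPKM or more, without the mitochondrial carriers (Slc25a), the amino acid carrier families (Slc1a, Slc3a, Slc6a, Slc7a, Slc36a, Slc38a, Slc43a) and the genes Slc2a1, Slc16a3, Slc11a1 and Slc40a1. FPKM (fragments per kilobase of transcript, relative to all mapped fragments) is a level per transcript length. Of 245 Slc genes listed, 85 were left out by family or name and 54 by the minimum mean, which left 106 members among 9795 genes that met the same minimum, out of 13339 genes listed. The values just below the minimum were means of 0.792 (Slc24a3), 0.956 (Slc5a3) and 0.97 FPKM (Slc22a18), and those just above it were 1.02 (Slc18b1), 1.03 (Slc18a2) and 1.07 FPKM (Slc35d1). Of the 106 members, 5 (Slc17a9, Slc18a2, Slc18b1, Slc35d1 and Slc5a6) would have had a mean under 1 FPKM without their highest library. All 106 were above 0 in every library, and 65 reached 10 FPKM in at least 1 of them.

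The cells were macrophages grown from the bone marrow of C57BL/6 mice aged 8 weeks, in DMEM with the growth factor M-CSF for 5 days. LPS, a bacterial outer membrane component sensed by the receptor TLR4, was given at 100 ng/ml, and RNA was sequenced on a BGISEQ-500 at 0, 4, 8, 12 and 24 h. Each time was 1 library, so no test between times was possible, and every difference below is between a pair of libraries. Effects of LPS and of culture time cannot be told apart, for want of cells kept as long without LPS. No sample label names a genotype, the titles bear the letters WT, and 1 protocol field speaks of dendritic cells.

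Solute carriers move small molecules across membranes, either down a gradient or by coupling to sodium, protons or another ion. Some sit in the plasma membrane and set what a cell takes up, while others sit in lysosomes, endosomes, the endoplasmic reticulum or the Golgi apparatus and set what those compartments hold. In macrophages, carriers of metals and nucleosides act in the recycling of engulfed cells and in the withholding of metals from microbes, and lysosomal carriers return the products of digestion to the cytosol.

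To show the regulatory sequence of carriers that moved, the 250 bases before each RefSeq start were searched on both strands for 4 motifs, in 109 windows of 82 members and in all 32851 windows of the table (some genes have several starts, and their windows can overlap). The E-box CACGTG, bound by MYC, TFEB and related factors, was in 13.8% of the members' windows (15 members) and in 6.02% of all windows. The 15 members with the E-box did not share a direction: from 0 h to 24 h, on the log2(FPKM + 1) scale, 2 passed 2-fold upward (11.3% of all genes) and 2 downward (14.5% of all genes), and 10 of the 15 differences were below 0. The hypoxia response core ACGTG, which every E-box of this form contains, was in 22.0% against 16.6%. The metal response element TGCNCNC was in 56.0% against 44.4%, and the NF-kappaB motif in 7.34% against 7.25%. The genes behind all windows were not held to the minimum mean that the members met, so these shares compare unlike sets of genes. The following stretches (GRCm38.p6, each read 5′ to 3′ on the gene's strand, chosen after the values were seen) show the E-box in capitals in 3 carriers that were more abundant at 12 or 24 h than at 0 h, followed by 80 bases of the carriers of a sugar and of nucleosides with the largest increases, where none of the 4 motifs was present in the 250 bases. They lie at chr3:104638437-104638496 (+), chr2:165473319-165473378 (-), chr11:54028295-54028354 (-), chr2:27028169-27028248 (-) and chr2:122426185-122426264 (+), and none overlaps an annotated GENCODE exon.
Slc16a1: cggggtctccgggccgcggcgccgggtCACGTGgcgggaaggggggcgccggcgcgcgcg
Slc13a3: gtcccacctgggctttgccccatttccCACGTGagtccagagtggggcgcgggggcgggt
Slc22a4: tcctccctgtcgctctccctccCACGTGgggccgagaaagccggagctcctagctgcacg
Slc2a6: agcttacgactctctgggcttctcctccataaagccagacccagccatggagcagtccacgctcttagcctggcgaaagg
Slc28a2: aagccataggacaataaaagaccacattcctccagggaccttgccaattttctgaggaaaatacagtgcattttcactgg
A match is a description of letters and not a bound site, and an absence says only that these letters are not in this window.

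The libraries were alike in estimated depth, between 19.1 and 19.6 M reads (megareads), as read from the steps between low values. Of 8 macrophage markers all 8 passed the minimum mean, whereas none of the 5 listed dendritic cell markers, the 3 listed lymphoid markers or the 1 listed erythroid marker did. At 24 h 3 of the 8 were 2-fold higher than at 0 h (11.3% of all genes) and 1 was lower (14.5% of all genes). Adgre1, which encodes F4/80, had 340 FPKM at 0 h and 967 at 24 h, and Cd68 had 1896 and 824 FPKM. All 5 listed neutrophil markers passed, with a sum of 81.1, 132, 205, 178 and 74.4 FPKM at 0, 4, 8, 12 and 24 h, of which the receptor gene Csf3r made up 38.1 FPKM at 0 h and 187 at 8 h. Of the others, the granule gene Ngp went from 35.1 FPKM at 0 h to 0.28 at 24 h, and Mpo was at 0 at 24 h. Ly6g rose from 0.12 FPKM at 0 h to 3.71 at 24 h, its highest value. Also past the minimum mean were 2 of 4 stromal markers and 1 of 2 listed mast cell markers, none of them above 2.78 FPKM. The part of these cell types in the values below was not tested. The level of the median gene also moved: over the 9795 genes, the median difference from 0 h on the log2(FPKM + 1) scale was -0.70, -0.49, -0.35 and -0.11 in the 4, 8, 12 and 24 h libraries. Counts of members at 4 h are therefore given as deposited and with each library centred on its median. Counts of other listed genes are given as deposited. In bulk RNA, fewer cells of a kind and less of a transcript per cell cannot be told apart.

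As deposited, the solute carriers were, like all genes, more often lower than higher at 4 h, and by 24 h both directions were equally frequent. Genes are called higher or lower here where log2(FPKM + 1) differed by 1 or more, that is 2-fold. At 4 h against 0 h, 17 of 106 members (16%) were higher, beside 12.2% of all genes, and 49 (46.2%) were lower, beside 38.1% of all genes. With centred libraries the counts became 24 higher (all genes 19.4%) and 18 lower (all genes 16.3%). Of the members counted, 57.1% were then higher, against 25.8% as deposited. The balance turned over all genes as well, from 1197 higher and 3729 lower as deposited to 1903 and 1598 with centred libraries. At 24 h against 0 h, 13 members were higher (all genes 11.3%) and 13 lower (all genes 14.5%), with the same counts after centring. From 4 h to 24 h, 31 were higher (all genes 25%) and 10 lower (all genes 8.19%), but centred libraries gave 15 higher (all genes 8.94%) and 17 lower (all genes 16%). The median member differed from 0 h by -0.94 at 4 h, beside -0.70 for all genes, and by -0.11 at 24 h, as did the median gene. The highest library was 0 h for 53 of 106 members (50%, all genes 48.7%), 4 h for 11 (10.4%, all genes 12.4%) and 8 h for 5 (4.72%, all genes 6.77%). It was 12 h for 13 (12.3%, all genes 7.58%) and 24 h for 24 (22.6%, all genes 24.5%).

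**Figure D1:**
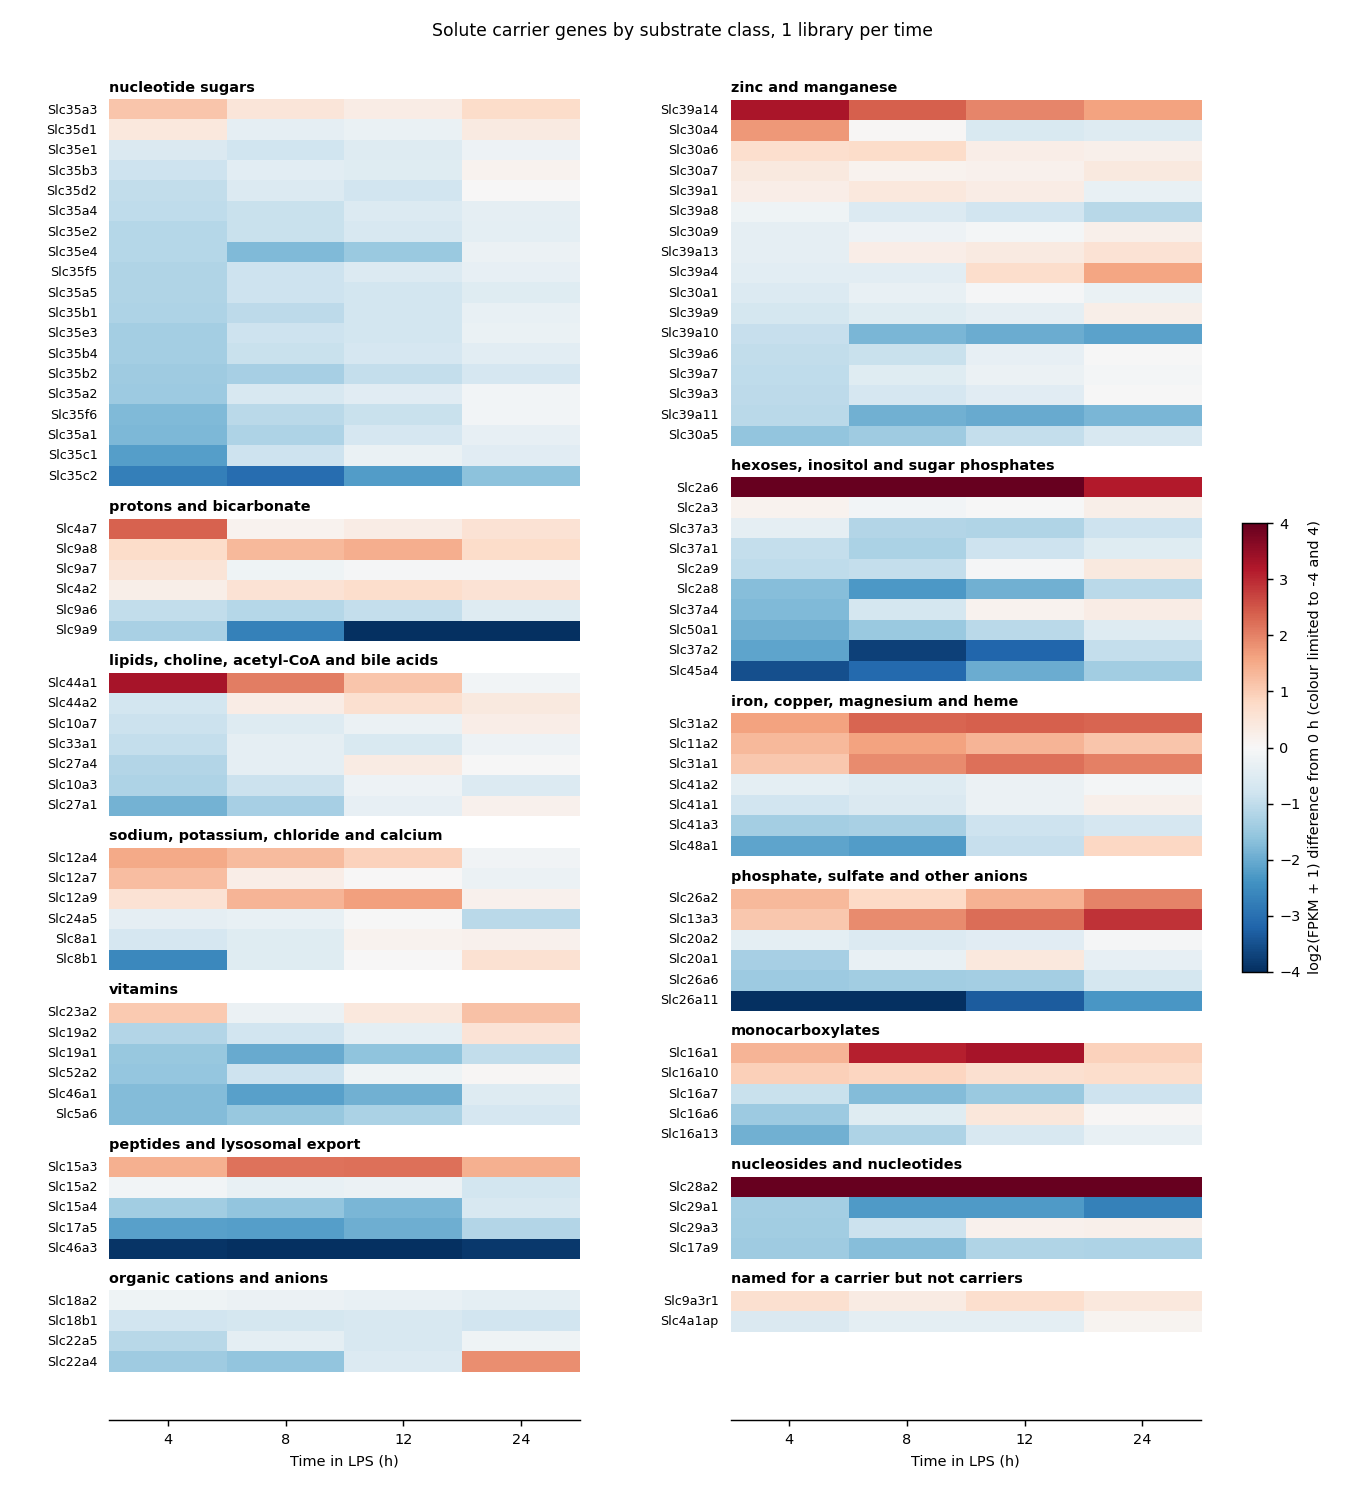
Difference of solute carrier genes from the 0 h library, in log2(FPKM + 1) units (colour, limited to -4 and 4), at 4, 8, 12 and 24 h of LPS, grouped by substrate class; each column is 1 library. Slc2a6 and Slc28a2 are dark red at 4, 8 and 12 h, Slc46a3 is dark blue at 4 to 24 h, and most nucleotide sugar carriers are blue at 4 h and pale at 24 h.

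**Figure D2:**
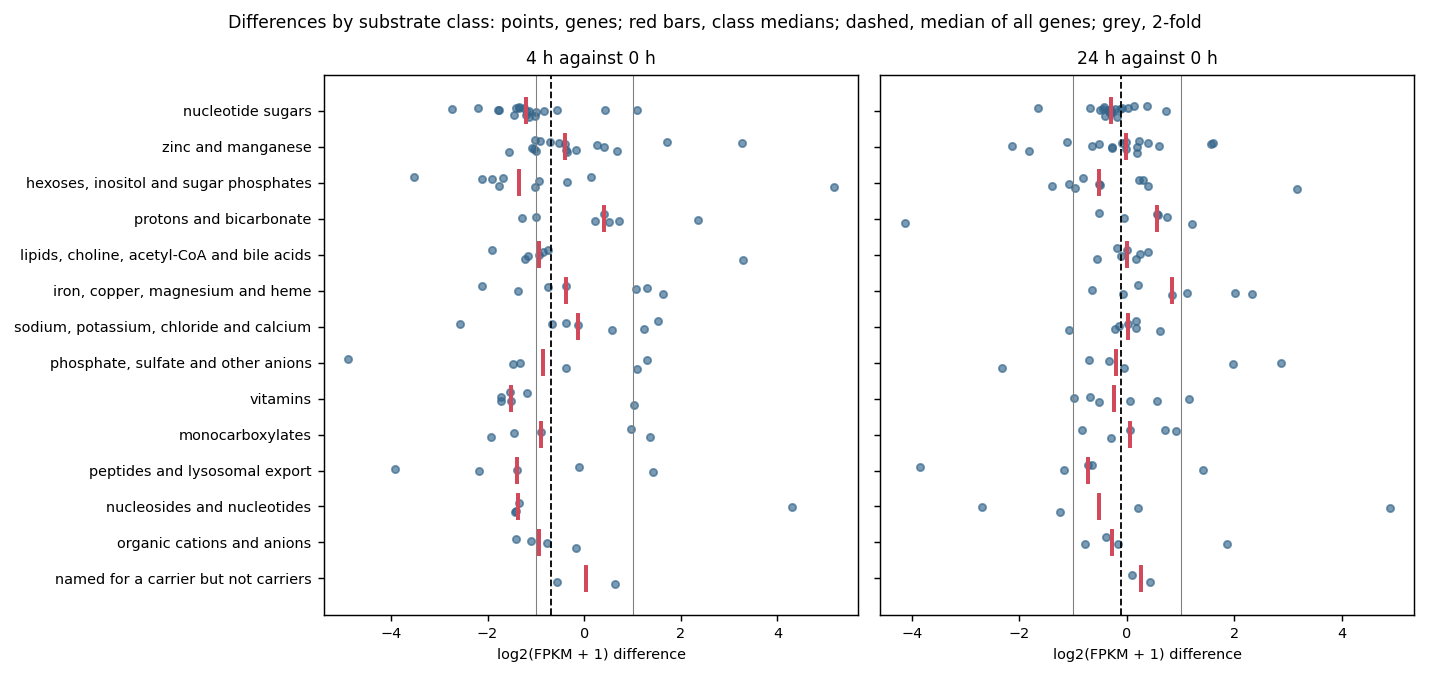
Difference in log2(FPKM + 1) from 0 h at 4 h (left) and 24 h (right) for each member (points, spread vertically for view) by substrate class; red bars are class medians, the dashed line is the median of all 9795 genes and grey lines mark 2-fold. Vitamin carriers have a class median of -1.53 at 4 h, proton and bicarbonate carriers one of 0.42.

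Among the 10 carriers of hexoses and sugar phosphates, Slc2a6 alone was 2-fold higher at 4 h, and 6 were lower. Of all genes, 12.2% were higher and 38.1% lower. Slc2a6 encodes GLUT6, a facilitative hexose transporter of lysosomal membranes, and lies on chromosome 2 (27021363 to 27028000, GRCm38.p6). It had 9.66, 383, 598, 474 and 95.1 FPKM at 0, 4, 8, 12 and 24 h. That was 39.7-fold more at 4 h than at 0 h, and all 4 LPS libraries lay above 0 h. Slc37a2, a sugar phosphate exchanger of the endoplasmic reticulum, ran the other way, with 82.8, 18.2, 5.34, 8.28 and 41.9 FPKM in the same order, lowest at 8 h. Slc45a4, of a family of proton-coupled sugar carriers, had 17.6, 0.62, 1.17, 3.66 and 6.05 FPKM, 28.4-fold less at 4 h than at 0 h and 2.91-fold less at 24 h. Slc50a1 (SWEET1), a sugar uniporter, had 22.5, 5.22, 7.32, 10.1 and 15.3 FPKM, lowest at 4 h and partly regained by 24 h.

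The other sugar carriers were below 10 FPKM in every library. Slc37a4, which brings glucose 6-phosphate into the endoplasmic reticulum for glucose 6-phosphatase, had 5.59, 0.94, 3.09, 6.19 and 7.15 FPKM. Slc2a8, an intracellular GLUT, and the urate carrier gene Slc2a9 were also 2-fold lower at 4 h. Slc2a3 (GLUT3, a high-affinity glucose transporter) stayed between 2.73 and 3.72 FPKM. The class median at 4 h was -1.36, beside -0.70 for all genes. With centred libraries 5 of the 6 lower members were still counted (16.3% of all genes). After a trend by transcript length was removed, 2 were (11.9% of all genes). At 24 h 1 member was higher (11.3% of all genes). Lower than at 0 h were 2, Slc45a4 and Slc2a8 (14.5% of all genes). Of 12 sugar and glycan enzymes listed by function, 1 was higher and 3 were lower at 4 h, beside 12.2% and 38.1% of all genes. Hk2, a hexokinase, had 10.8, 47.6, 30.02, 48.9 and 29.2 FPKM.

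The 19 Slc35 genes, carriers that fill the Golgi apparatus and endoplasmic reticulum with activated sugars and sulfate together with relatives of unknown substrate, were mostly lower at 4 h as deposited, though few were once the libraries were centred. Of these 14 were 2-fold lower at 4 h than at 0 h (38.1% of all genes) and 1 was higher (12.2% of all genes). For 15 the highest value was at 0 h (48.7% of all genes), and for 14 the lowest was at 4 h (46.1% of all genes). Summed over the family, the level was 370, 141, 171, 208 and 287 FPKM at 0, 4, 8, 12 and 24 h. The median difference at 4 h was -1.21 as deposited, beside -0.70 for all genes. It was -0.62 with centred libraries, beside -0.11 for all genes. Without the length trend it was -0.53, beside -0.002 for all genes. With centred libraries 4 of the 19 were lower (16.3% of all genes) and 2 were higher (19.4% of all genes). Without the length trend 4 were lower (11.9% of all genes) and 1 was higher (19.8% of all genes). At 24 h 1 member, Slc35c2, was still 2-fold below 0 h (14.5% of all genes). Higher at 24 h than at 4 h were 7 (25% of all genes), or 2 with centred libraries (8.94% of all genes).

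Slc35c2, a gene of this family linked to fucosylation, had 39.5, 5.10, 3.86, 7.61 and 11.8 FPKM, and so stayed below 0 h in all LPS libraries. Slc35c1, the Golgi GDP-fucose transporter, had 17.7, 3.08, 9.59, 14.7 and 12.8 FPKM, 5.73-fold less at 4 h, and most of the level was regained by 12 h. Slc35a2, the UDP-galactose transporter, had 10.1, 3.03, 6.16, 7.05 and 9.22 FPKM. All 3 were lowest at 4 h or 8 h, as was Slc35a1, which carries CMP-sialic acid, at 7.43 FPKM at 0 h and 1.43 at 4 h. Slc35b2, which carries the sulfate donor PAPS, had 34.1, 12.1, 13.1, 17.0 and 20.9 FPKM. Slc35b4 had 17.2, 6.07, 8.69, 10.3 and 12.4 FPKM, and Slc35a5 had 13.7, 5.37, 7.28, 7.92 and 9.39 FPKM. The most abundant members of the family were Slc35f6, a relative without a settled substrate, and Slc35b1, which serves the endoplasmic reticulum. Slc35f6 had 65.5, 18.7, 30.5, 34.6 and 61.1 FPKM, and Slc35b1 had 53.4, 22.0, 25.4, 31.6 and 43.4 FPKM.

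Slc35a3, a carrier of UDP-N-acetylglucosamine, was the 1 member counted as higher at 4 h as deposited, 2.32-fold above 0 h. It had 6.32, 14.7, 9.19, 7.92 and 11.2 FPKM. Slc35d1 was also highest at 4 h, with 1.65 FPKM against 0.98 at 0 h (both were named after their values were seen). Without the 4 h library Slc35d1 would have had a mean under 1 FPKM, so its peak is tied to the minimum mean. The sialic acid enzymes moved in the direction of most Slc35 genes: Cmas, which makes CMP-sialic acid, had 44.8, 8.05, 11.2, 19.7 and 22.5 FPKM, and Gne, which starts sialic acid synthesis, 5.46, 0.38, 0.72, 1.06 and 1.63 FPKM. Both were lowest at 4 h.

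Nucleoside carriers differed in opposite directions: the sodium-coupled carrier was higher and the main equilibrative one lower in all LPS libraries than at 0 h. Slc28a2 (CNT2, which takes up purine nucleosides and uridine with sodium; chromosome 2, 122426357 to 122461152) had 5.22, 121, 432, 321 and 185 FPKM at 0, 4, 8, 12 and 24 h. It was 23.3-fold higher at 4 h and 35.4-fold higher at 24 h than at 0 h. Its paralogue Slc28a2b, listed in the table as Gm14085, did not exceed 0.13 FPKM, and reads shared by paralogues are divided by estimate. Slc29a1 (ENT1, the main equilibrative nucleoside transporter of the plasma membrane; chromosome 17, 45585200 to 45599618) had 57.2, 21.8, 11.2, 11.2 and 7.99 FPKM, 7.16-fold less at 24 h than at 0 h. Slc29a1 was level between 8 h and 12 h (11.21 and 11.19 FPKM) and lower at each other step, while the values of Slc28a2 peaked at 8 h.

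The lysosomal nucleoside carrier gene Slc29a3 (ENT3) had 26.3, 9.33, 14.2, 29.8 and 30.4 FPKM, low at 4 h and back above its 0 h value at 12 and 24 h. Slc17a9, which loads ATP into vesicles, had 3.13 FPKM at 0 h and at most 0.79 afterwards. Without its 0 h library it would have had a mean under 1 FPKM. The minimum mean thus favoured its count as lower at 4 h and 24 h. Of these 4 genes 1 was higher (12.2% of all genes) and 3 lower (38.1% of all genes) at 4 h. With centred libraries none of the 3 reached 2-fold lower. At 24 h 1 was higher (11.3% of all genes) and 2 were lower (14.5% of all genes), with the same counts after centring. Of 12 listed enzymes of nucleoside handling, 9 met the minimum mean. Among these 9, 4 were higher and 2 lower at 4 h, beside 12.2% and 38.1% of all genes. Pnp, which splits purine nucleosides, had 49.2, 579.9, 879, 597 and 248 FPKM, and its near copy Pnp2 had 1.16, 59.9, 132, 123 and 27.3 FPKM, a division of reads that is uncertain. Upp1, which splits uridine, had 0.13, 15.8, 31.6, 26.7 and 10.8 FPKM. These 3 genes, like Slc28a2, were highest at 8 h, whereas the fourth enzyme gene counted as higher at 4 h, Dck (a deoxynucleoside kinase, outside the rule for named genes), was highest at 12 h, with 8.98, 54.7, 67.1, 81.04 and 80.9 FPKM.

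**Figure D3:**
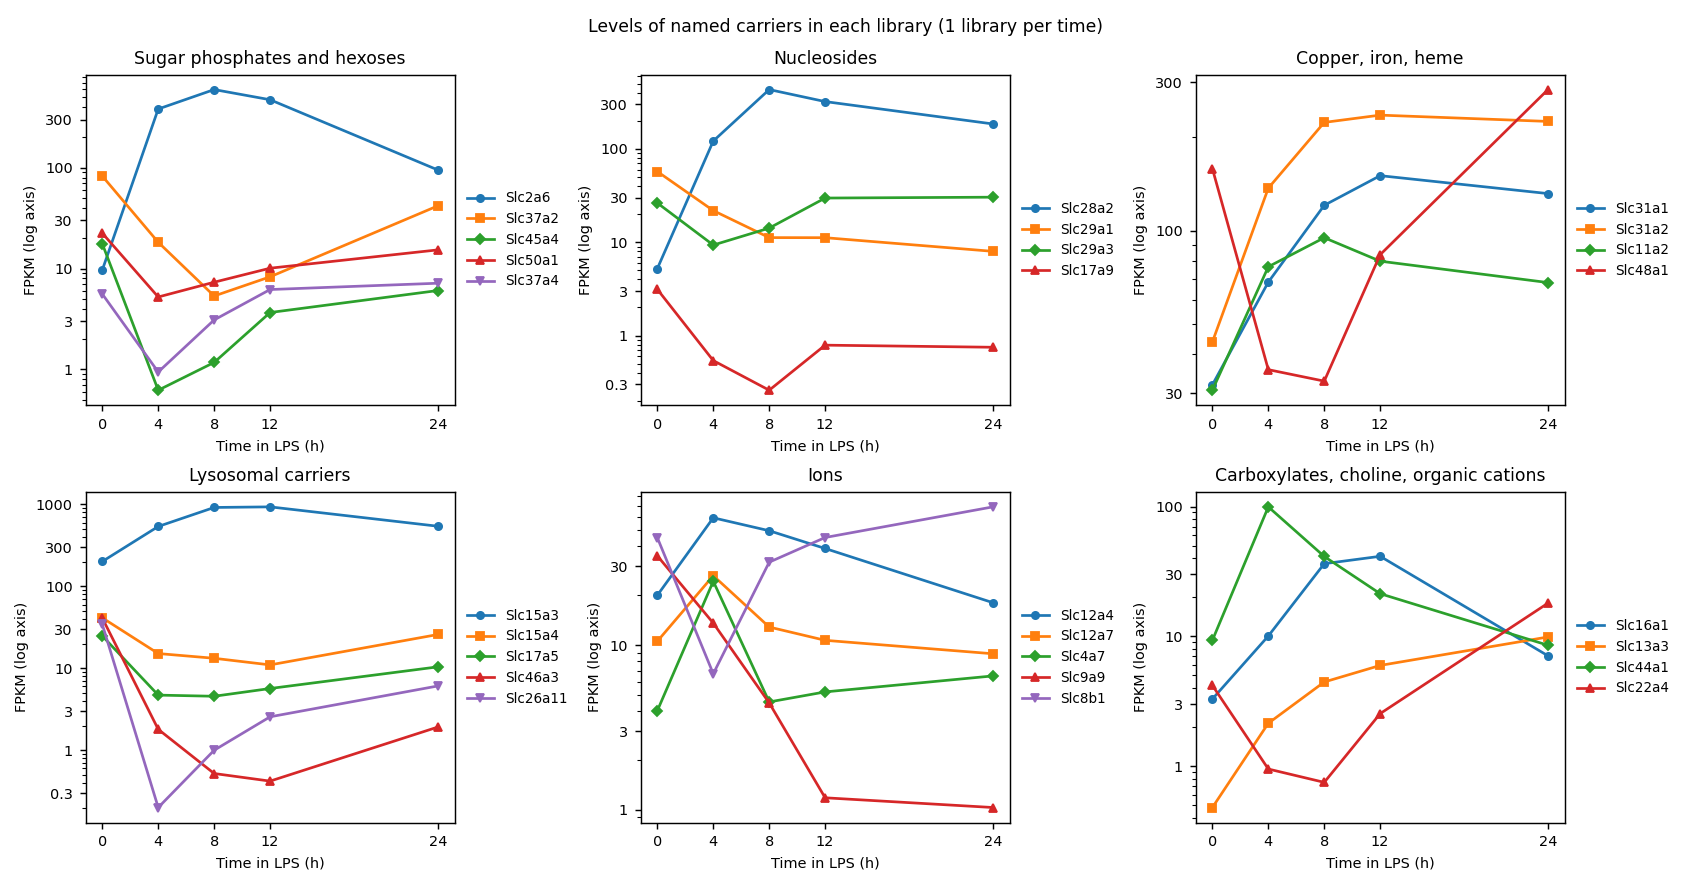
Levels in FPKM (log axes) of named carriers in the 5 libraries against hours of LPS, by substrate group; each point is 1 library and lines join points of a gene. Slc2a6 and Slc28a2 peak at 8 h at 598 and 432 FPKM, both copper carriers stay above 100 FPKM from 8 h on, and Slc9a9 goes from 34.8 FPKM at 0 h to 1.03 at 24 h.

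Both copper carriers and the iron carrier Slc11a2 were more abundant in every LPS library than at 0 h, whereas the heme carrier was first lower and then higher. Slc31a1 (CTR1, the copper importer; chromosome 4, 62360583 to 62391769) had 31.9, 68.3, 121, 150.2 and 132 FPKM at 0, 4, 8, 12 and 24 h. Its relative Slc31a2 (CTR2, mostly in endosomes and lysosomes) had 43.8, 137, 223, 235 and 224 FPKM. At 24 h they were 4.12-fold and 5.12-fold above 0 h, and their sum went from 75.8 to 356 FPKM. Slc11a2 (DMT1), which moves ferrous iron with protons, had 30.7, 76.5, 94.9, 79.7 and 68.1 FPKM, and was 2.22-fold higher at 24 h. These 3 genes were also counted as higher at 4 h and 24 h with centred libraries and without the length trend.

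Slc48a1 (HRG1), which carries heme out of the phagolysosome, had 158, 35.7, 32.8, 83.7 and 284 FPKM, 4.43-fold less at 4 h than at 0 h and 7.96-fold more at 24 h than at 4 h. The heme-degrading enzyme gene Hmox1 had 177, 44.2, 369, 1255 and 3228 FPKM, below 0 h at 4 h and highest at 24 h like Slc48a1. Steap4, a metalloreductase gene, was listed at 0 at 0 h and had 19.4, 18.3, 6.44 and 0.25 FPKM at the later times, while its relative Steap3 had 30.4, 4.77, 0.89, 2.17 and 7.06 FPKM. Among 10 partners of copper, iron and heme, 1 was higher and 7 were lower at 4 h, beside 12.2% and 38.1% of all genes. At 24 h 2 partners were higher and 5 lower, beside 11.3% and 14.5% of all genes. The 3 magnesium carriers (Slc41a1, Slc41a2, Slc41a3) stayed between 0.94 and 10.1 FPKM, and Slc41a3 was 3.30-fold lower at 4 h. Over the 7 carriers of these metals and heme, the median at 4 h was -0.38 as deposited but 0.20 with centred libraries, so it has no stable sign.

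Among the 17 zinc carriers, Slc39a14 and Slc30a4 were highest at 4 h and Slc39a10, Slc39a11 and Slc39a8 were low at 24 h, while the sums of the importing and exporting families changed little. Slc39 (ZIP) proteins bring zinc into the cytosol and Slc30 (ZnT) proteins take it out or into vesicles. As deposited, the 11 Slc39 genes summed to 266, 239, 254, 252 and 229 FPKM at 0, 4, 8, 12 and 24 h. The 6 Slc30 genes summed to 68.0, 57.5, 52.6, 55.9 and 59.2 FPKM. Slc39a1 and Slc39a7, with 106.4 and 73.3 FPKM at 0 h, made up most of the Slc39 sum, which therefore says little about the other members. Slc39a14 (ZIP14, which also carries iron and manganese; chromosome 14, 70303467 to 70351452) had 2.35, 31.1, 16.5, 11.8 and 9.23 FPKM, 13.2-fold higher at 4 h and 3.93-fold at 24 h. Slc30a4 (ZnT4, of vesicles) had 2.76, 11.4, 2.89, 1.44 and 1.61 FPKM, a single high library at 4 h. These were the 2 zinc carriers that were 2-fold higher at 4 h.

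Slc39a1 (ZIP1, of the plasma membrane) was the most abundant zinc carrier, with 106.4, 129, 144, 130 and 87.2 FPKM. Slc39a7 (ZIP7, which releases zinc from the endoplasmic reticulum) had 73.3, 35.9, 52.4, 62.5 and 68.6 FPKM. Slc30a5 (ZnT5, of the secretory pathway) had 23.0, 7.11, 7.92, 11.4 and 14.3 FPKM, 3.23-fold less at 4 h. Both were lowest at 4 h, whereas Slc39a1 moved by less than 2-fold over the course. Slc39a11 had 28.8, 13.1, 6.85, 6.38 and 7.45 FPKM and stayed low to 24 h. Also 2-fold lower at 24 h were Slc39a10, with 9.43 FPKM at 0 h and 1.36 at 24 h, and Slc39a8, with 2.27 and 0.50 FPKM. The gut zinc importer gene Slc39a4 was higher at 24 h, at 7.08 FPKM against 1.72 at 0 h (these 3 fall outside the rule for named genes and were named after their values were seen).

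At 4 h 2 zinc carriers were higher and 4 lower, beside 12.2% and 38.1% of all genes. With centred libraries 3 were higher and none lower, beside 19.4% and 16.3% of all genes. The class median at 4 h was -0.41 as deposited, 0.17 with centred libraries and -0.05 without the length trend, so its sign depends on the scaling. At 24 h 2 were higher and 3 lower under each of the 3 scalings, beside 11.3% and 14.5% of all genes as deposited. Of 6 measured partners of zinc handling, 1 was higher at 4 h (12.2% of all genes): the metallothionein gene Mt2, with 4.06, 173, 68.2, 36.3 and 43.1 FPKM. The genes of calprotectin, a zinc-binding protein abundant in neutrophils, were lower at 24 h: S100a9 had 167, 159, 89.3, 44.3 and 7.14 FPKM, and S100a8 117, 108, 144, 125 and 46.6 FPKM. Of the 5 neutrophil markers past the minimum mean, 3, Ngp among them, were also lower at 24 h (14.5% of all genes). The marker Ly6g was higher (11.3% of all genes), with 0.12 FPKM at 0 h and 3.71 at 24 h, and Csf3r had 38.1 and 69.5 FPKM. The part of neutrophils in these values was not tested.

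**Figure D4:**
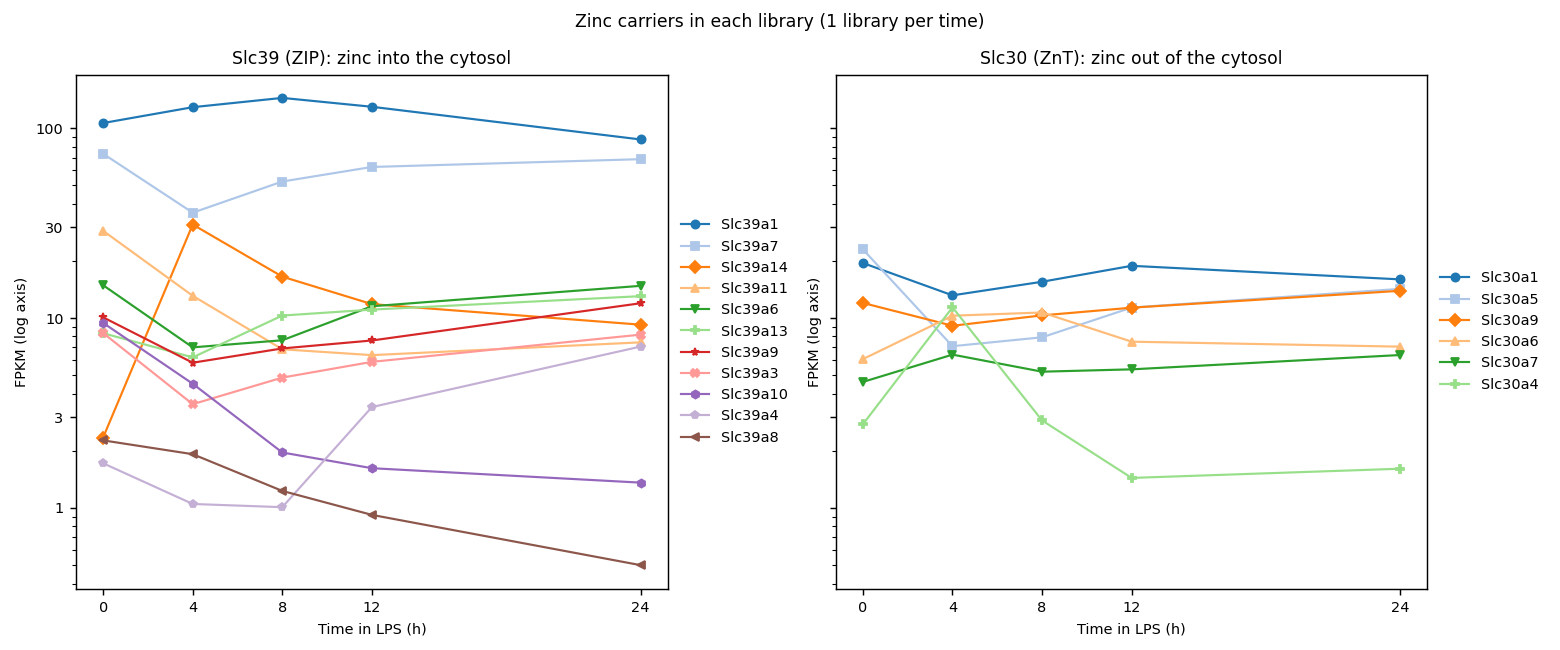
Levels in FPKM (log axis, shared) of the 11 Slc39 genes (left) and 6 Slc30 genes (right) in the 5 libraries against hours of LPS; each point is 1 library. Slc39a14 and Slc30a4 are highest at 4 h, at 31.1 and 11.4 FPKM, and Slc39a1 stays above 80 FPKM throughout.

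Of the 5 carriers of peptides and lysosomal products, Slc15a3 was higher and Slc46a3, Slc17a5 and Slc15a4 were lower. Slc15a3, a proton-coupled carrier of histidine and small peptides in endosomes and lysosomes, was the most abundant of all 106 members, with 201, 539, 919, 935 and 542 FPKM at 0, 4, 8, 12 and 24 h. Its relative Slc15a4, which acts in the same compartments and in signalling by endosomal Toll-like receptors, had 41.3, 15.2, 13.3, 11.01 and 25.9 FPKM. These paralogues thus went in opposite directions, 2.68-fold higher and 2.73-fold lower at 4 h. Slc46a3, a lysosomal carrier (chromosome 5, 147875897 to 147894861), had 41.1, 1.80, 0.52, 0.42 and 1.92 FPKM, 21.4-fold less at 24 h than at 0 h, with no LPS library above 1.92. Slc17a5 (sialin), which exports sialic acid from lysosomes, had 24.9, 4.71, 4.56, 5.67 and 10.4 FPKM, low at all later times.

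With centred libraries 1 of the 5 was higher and 2 were lower at 4 h, beside 19.4% and 16.3% of all genes. The same counts held at 24 h with and without centring, beside 11.3% and 14.5% of all genes as deposited. All 3 higher genes among 5 measured partners of the peptide carriers belong to the sensing of bacterial peptides: Ripk2 had 5.07, 101, 22.9, 14.6 and 15.4 FPKM, Nod2 had 1.07, 22.2, 15.8, 13.5 and 10.3 FPKM, and Nod1 had 5.91, 62.0, 52.9, 52.4 and 54.8 FPKM. Each was higher than at 0 h in all LPS libraries. Of all genes, 12.2% were 2-fold higher at 4 h and 11.3% at 24 h.

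Among 7 carriers of protons and bicarbonate, Slc4a7 had a single high library at 4 h and Slc9a9 was lower in each library than in the one before. Slc4a7 (NBCn1), a sodium bicarbonate cotransporter that brings base into the cell, had 3.99, 24.4, 4.51, 5.19 and 6.49 FPKM, 6.11-fold higher at 4 h. Slc9a9 (NHE9), a sodium/proton exchanger of endosomes (chromosome 9, 94669557 to 95230453), had 34.8, 13.6, 4.45, 1.18 and 1.03 FPKM, 33.8-fold less at 24 h than at 0 h. Slc4a2 (AE2), a chloride/bicarbonate exchanger, had 15.7, 18.6, 23.8, 26.4 and 23.7 FPKM, less than 2-fold apart, and 14.9% of its exon bases overlap the gene Fastk, which makes its value uncertain.

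At 4 h 1 of these 7 was higher and 1 lower, beside 12.2% and 38.1% of all genes. With centred libraries 3 were higher and none lower, beside 19.4% and 16.3% of all genes. At 24 h 1 was higher (11.3% of all genes) and 1, Slc9a9, was lower (14.5% of all genes). The class median at 4 h was above 0 in each scaling. It was 0.42 as deposited, beside -0.70 for all genes, and 0.997 with centred libraries, beside -0.11. Without the length trend it was 0.92, beside -0.002 for all genes. Of 14 pumps, anhydrases and regulators listed with them, 10 met the minimum mean. Among these 10, 1 was higher (12.2% of all genes) and 1 lower (38.1% of all genes) at 4 h. Car13, a cytosolic carbonic anhydrase, had 8.33, 122, 154, 131 and 94.9 FPKM. Xpr1, a phosphate exporter, had 12.2, 4.44, 2.92, 5.57 and 9.68 FPKM.

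The cation-chloride cotransporter genes Slc12a4 and Slc12a7 were higher at 4 h and back near the 0 h level at 24 h. Slc12a4 (KCC1), which lets potassium and chloride out of the cell, had 20.1, 59.3, 49.5, 38.6 and 18.1 FPKM at 0, 4, 8, 12 and 24 h. Slc12a7 (KCC4), of the same kind, had 10.54, 26.4, 12.9, 10.7 and 8.85 FPKM. Both were highest at 4 h and at 24 h slightly below 0 h. Slc8b1 (NCLX), which exchanges sodium for calcium across the inner mitochondrial membrane, had 44.9, 6.69, 31.9, 45.0 and 69.1 FPKM, 6.71-fold less at 4 h than at 0 h and 10.3-fold more at 24 h than at 4 h. Over the 7 carriers of sodium, potassium, chloride and calcium, 2 were higher and 1 lower at 4 h, beside 12.2% and 38.1% of all genes. With centred libraries 3 were higher and 1 was lower, beside 19.4% and 16.3% of all genes. The class median at 4 h was -0.13 as deposited and 0.45 with centred libraries. Slc24a5 had 36.5% of its exon bases shared with another gene, so its values are uncertain.

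Among 6 carriers of phosphate, sulfate and other anions, Slc26a11 had the largest ratio of highest to lowest FPKM of all members. On the log2(FPKM + 1) scale its difference from 0 h at 4 h was -4.88, while Slc28a2 and Slc2a6 differed by 6.12 and 5.81 at 8 h. Slc26a11, a sulfate carrier and anion exchanger (chromosome 11, 119355509 to 119381076), had 34.4, 0.20, 1, 2.56 and 6.09 FPKM at 0, 4, 8, 12 and 24 h. The value at 4 h was 172-fold below that at 0 h, and its counting interval (95%, exact Poisson, at the estimated depth) was 0.0964 to 0.366 FPKM, which covers counting error only. At 24 h it was still 5.64-fold below 0 h. Slc20a1 (PiT1), a sodium-coupled phosphate importer, had 13.6, 4.83, 11, 18.5 and 10.6 FPKM, lowest at 4 h and highest at 12 h.

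Slc13a3 (NaDC3), which takes up succinate and other dicarboxylates with sodium, had 0.48, 2.14, 4.45, 5.97 and 9.89 FPKM, and was higher in each library than in the one before. Slc26a2, a sulfate carrier, had 1.32, 4.69, 2.99, 5.02 and 8.12 FPKM (both were named after their values were seen). At 4 h 2 of the 6 were higher and 3 lower, beside 12.2% and 38.1% of all genes. Centred libraries gave 2 and 1, beside 19.4% and 16.3% of all genes. At 24 h 2 were higher and 1 was lower under each scaling, beside 11.3% and 14.5% of all genes as deposited.

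Among the 5 members of the monocarboxylate carrier family (Slc16), which is given here without Slc16a3, Slc16a10 was the most abundant except at 12 h. At 12 h Slc16a1 was. Slc16a1 (MCT1; chromosome 3), which carries lactate and pyruvate with a proton, had 3.29, 10.1, 36.3, 41.4 and 7.08 FPKM, low at both ends of the course. Slc16a10 (TAT1), which carries aromatic amino acids, had 21.1, 42.2, 39.3, 33.3 and 34.97 FPKM, above 0 h in all LPS libraries by no more than 2-fold. Slc16a6 had 7.5, 2.12, 5.02, 10.6 and 7.86 FPKM, and 14.6% of its exon bases overlap Amz2 and Arsg. Of the 5 members 1 was higher and 2 were lower at 4 h, beside 12.2% and 38.1% of all genes. With centred libraries 2 were higher and 1 was lower, beside 19.4% and 16.3% of all genes. Without the length trend the counts were also 2 and 1, beside 19.8% and 11.9% of all genes. None was called at 24 h (1 lower without the length trend), beside 11.3% of all genes higher and 14.5% lower as deposited. Bsg (basigin), the partner that MCT1 needs to reach the cell surface, had 185, 79.4, 113, 152 and 234 FPKM, and Emb (embigin) had 98.2, 48.2, 51.9, 60.01 and 53.3 FPKM. Both were lowest at 4 h, when Slc16a1 was already above its 0 h value.

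Among 7 carriers of choline, fatty acids, acetyl-CoA and the bile acid family, Slc44a1 stood alone as higher at 4 h (12.2% of all genes). Slc44a1 (CTL1), a choline importer (chromosome 4, 53440387 to 53622478), had 9.32, 99.5, 41.3, 21.3 and 8.54 FPKM at 0, 4, 8, 12 and 24 h, 10.7-fold higher at 4 h and at the starting level by 24 h. Its relative Slc44a2 had 30.4, 17.7, 37.6, 48.1 and 40.02 FPKM, lowest where Slc44a1 was highest. Slc27a1 (FATP1), which takes up fatty acids by joining them to coenzyme A, had 53.3, 13.5, 20.8, 42.4 and 60.2 FPKM, 3.95-fold less at 4 h and 4.46-fold more at 24 h than at 4 h. Slc27a4 (FATP4) had 15.0, 6.17, 11.6, 19.1 and 15.0 FPKM, also lowest at 4 h but highest at 12 h. At 4 h 3 of the 7 were lower (38.1% of all genes), or 1 with centred libraries (16.3% of all genes), and the class median was -0.94. At 24 h none was called higher or lower than at 0 h, beside 11.3% and 14.5% of all genes.

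Of 6 vitamin carriers, 5 were lower at 4 h (38.1% of all genes), 2 of them with centred libraries (16.3% of all genes), and the ascorbate carrier was higher. The class median at 4 h was -1.53 as deposited, beside -0.70 for all genes, and -0.94 with centred libraries, beside -0.11. The 5 lower genes, Slc5a6 (biotin and pantothenate), Slc46a1 and Slc19a1 (folate), Slc19a2 (thiamine) and Slc52a2 (riboflavin), had 1.90 to 8.25 FPKM at 0 h and 0.25 to 2.19 FPKM at 4 h. Of these, Slc5a6 would have had a mean under 1 FPKM without its highest library, 0 h (3.12 FPKM). The minimum mean thus favoured its place among the lower genes. Slc23a2 (SVCT2), which takes up ascorbate with sodium, had 18.1, 38.2, 15.3, 24.7 and 41.7 FPKM, high at 4 h and 24 h with a dip between. At 24 h it was the 1 vitamin carrier counted as higher (11.3% of all genes), a call that ended once the length trend was removed. None was lower at 24 h (14.5% of all genes).

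Organic ion carriers were few and low, except Slc22a4 at 24 h. Slc22a4 (OCTN1), which takes up the antioxidant ergothioneine, had 4.19, 0.95, 0.75, 2.54 and 18.02 FPKM, 4.30-fold higher at 24 h than at 0 h and 18.97-fold higher than at 4 h. The carnitine carrier gene Slc22a5 stayed between 1.57 and 4.52 FPKM and did not share that late value. Of the 4 members 2 were lower at 4 h (38.1% of all genes), neither of them with centred libraries. At 24 h 1 was higher (11.3% of all genes). Of 2 genes named for carriers without being carriers, Slc9a3r1 (NHERF1), a scaffold that anchors exchangers to the cytoskeleton, had 54.8, 86.3, 69.1, 87.6 and 74.2 FPKM, less than 2-fold apart.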

How the data were processed

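The authors deposited 1 table of FPKM values with 2 decimals, 1 column per time point, per the file headers. Per the submitters' processing notes, Bowtie2, RSEM and GRCm38 were used (no version or role stated). Any annotation or filter is not given in the sources used here. RSEM divides shared reads by estimate, and an FPKM falls when other genes take more of a library.

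The scale was log2(FPKM + 1), on which folds of low genes come out too small. Printed folds are ratios of FPKM. Genes needed a mean of at least 1 FPKM. With 1 library per time, no test or p-value was computed. Replicates were absent, so spread between cultures is unknown. Alternatives were pseudocounts of 0.1 and 5, libraries centred on the median of log2(FPKM + 1), a running median by transcript length (GENCODE M21, 40 bins) removed, no minimum mean, a mean of at least 5 FPKM and 1.5-fold.

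Depth was estimated from whole multiples of the value of 1 read (transcript length less 50 nt, 5 to 80 M reads searched): whole values, within 0.04 reads or rounding, made up 44.9% to 53.7% of 147 to 164 in a library, against 25.4% to 26.6% by chance. The step was chosen for the best match, so this is an estimate. The counting steps were tested on simulated data.

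Members were named, by substrate class, as the gene with the highest mean and those of at least 10 FPKM in 1 library and 2-fold apart between 0, 4 or 24 h, up to 5 a class (8 for nucleotide sugars and zinc), and up to 3 partner genes a list by size of difference. Members, classes and lists were chosen with earlier results of these data known. Names, coordinates and promoters are from RefSeq (GRCm38.p6; all 106 members matched, 82 with a promoter). Python 3.11.15, numpy 2.4.6, pandas 2.3.3 and matplotlib 3.10.9 were used. A few genes are not reported here by name.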

Additional observations from a re-analysis of the deposited data

How the results depend on the processing

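No paired analysis was possible because each time point has 1 library, and no library could be left out in turn. No 2-fold call of a named member turned to the opposite direction, but at 4 h the class medians of metals and heme (-0.38, or 0.20 with centred libraries), of zinc (-0.41, or 0.17) and of sodium, potassium, chloride and calcium (-0.13, or 0.45) changed sign. The counts of members at 4 h against 0 h (17 higher, 49 lower), 24 h against 0 h (13 and 13) and 24 h against 4 h (31 and 10) stayed within 1.5 times with a pseudocount of 0.1 and with no minimum mean. A pseudocount of 5 gave 11 higher and 20 lower at 4 h, 8 lower at 24 h and 11 higher from 4 h to 24 h, since it compresses low values. Centred libraries gave 18 lower at 4 h, and 15 higher and 17 lower from 4 h to 24 h. Without the length trend there were 17 lower at 4 h with a median difference of -0.29, and 15 higher and 17 lower from 4 h to 24 h. With a mean of at least 5 FPKM, which tests fewer genes, 8 were lower at 24 h and 20 higher from 4 h to 24 h. At 1.5-fold, 21 were higher and 25 lower at 24 h, and 61 higher from 4 h to 24 h. The share of higher members among those counted was 25.8% at 4 h against 0 h as deposited, 57.1% with centred libraries and 58.5% without the length trend; from 4 h to 24 h it was 75.6%, 46.9% and 46.9%. Over all genes, 1197 higher and 3729 lower at 4 h became 1903 and 1598 with centred libraries, and 1927 and 1158 without the length trend. From 4 h to 24 h, 2448 and 802 became 876 and 1572, and 930 and 1480. The balance thus shifted over all genes as well, and the cause of these shifts was not tested. Of 86 calls of named members, 86 were kept with a pseudocount of 0.1, 65 with 5, 62 with centred libraries and 61 without the length trend. Depth limits the lowest values most: Slc26a11 at 4 h rests on an estimated 10.1 reads.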
